A study of Sus scrofa with 3 samples.

Results

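This section describes genes of cholesterol synthesis, sterol sensing, sterol uptake and transport, and cholesterol efflux in the pig kidney. The genes were chosen by name from a list of 34 symbols, and a gene was taken when its symbol stood in the count table. Rows were found for 28 of the 34 symbols, among 34570 genes in the table, and all 28 passed the filter on low counts. LSS and DHCR7 were found only under numbered identifiers, LOC100625138 and LOC100627707, whose symbols were looked up, so they are described beside the 28 and not counted with them. No row was found for LBR, MVD or TMEM97, and CYP51A1 is another name of CYP51, which was found.

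Kidney RNA came from Wuzhishan pigs aged 6 to 7 months, and all 3 groups received the same diet rich in fat and cholesterol. IM stands for the intact males, CM for the castrated ones, and CMT for those castrated and then given testosterone as replacement. The RNA of 3 pigs of a group was mixed into 1 library, which makes 9 pigs behind 3 libraries. No group has a replicate, no difference has a replicate check, and no p-value is given. No group on another diet is analysed here. Kidney tissue holds many cell types, and fewer cells of a type and less RNA per cell cannot be told apart in it.

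Cells make cholesterol from acetyl-CoA through mevalonate and the isoprenoid farnesyl diphosphate, which is drawn off for ubiquinone, dolichol and protein prenylation or passed on to squalene and the sterols. When sterols in the endoplasmic reticulum run low, SCAP carries SREBP-2, the product of SREBF2, to the Golgi, where it is cut to release a factor that switches on the enzymes of synthesis. When sterols are plentiful, the INSIG proteins hold SCAP back, and oxysterols activate the LXR receptors, which switch on the efflux pumps ABCA1 and ABCG1. In the kidney, tubule cells take up lipoprotein-bound and filtered lipids and also make sterols of their own.

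Levels are given as counts and as scaled CPM, which are counts relative to the scaled size of the library. The IM library held 16459771 counts, the CM library 18503537 and the CMT library 13601475. The fold between libraries is the ratio of scaled counts, followed in parentheses by its exact 95% interval, which covers counting error only. Calls of higher or lower need this interval to lie wholly past 2-fold, and a lower mark of 1.5-fold is used in the same way. Genes whose interval does not hold 1 are counted too, which many genes reach at this depth. Markers of proximal tubule had a summed level of 30818, 30138 and 37983 CPM in IM, CM and CMT, and of 23994, 24751 and 24280 CPM without PCK1, an enzyme of gluconeogenesis. Their median log2 fold was -0.04 in CMT against CM, with 11 of 19 below 0. In CM against IM the median was 0.146, with 12 of 19 above 0. GATM and SLC4A4 passed 1.5-fold there, both lower in CM, where 6.22% of all compared genes passed in either direction. Of 14 hepatocyte markers, 13 had a row with counts, and they summed to 1016, 566 and 912 CPM, with CM low; APOA2, APOH, CYP7A1 and SERPINA1 had fewer than 10 counts in every library. Markers of adrenal cortex, a sterol-rich gland next to the kidney, summed to 1.87, 1.48 and 1.74 CPM, and CYP17A1 and NR5A1 were among the 6 of 8 with fewer than 10 counts in every library.

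Few of the cholesterol genes differed between the pools by more than 2-fold. In CM against IM, 0 of 28 were called higher and 2 lower, FDPS and IDI1, where 1.20% and 1.52% of the 15472 compared genes were called. In CMT against CM, FDPS was called higher and ABCG1 lower, beside 1.84% and 1.11% of all compared genes. In CMT against IM, 0 were called higher and 0 lower, beside 0.905% and 0.595% of all genes. At the 1.5-fold mark, 3 of the 28 genes passed in CM against IM (6.22% of all genes), 1 in CMT against IM (3.74%) and 4 in CMT against CM (6.30%). FDPS, IDI1 and ABCG1 passed that mark in CM against IM. For CMT against CM they were FDPS, IDI1, ABCG1 and ACAT2, and for CMT against IM it was IDI1. With so few genes called, these shares describe the list and do not set it apart from other genes.

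**Figure D1:**
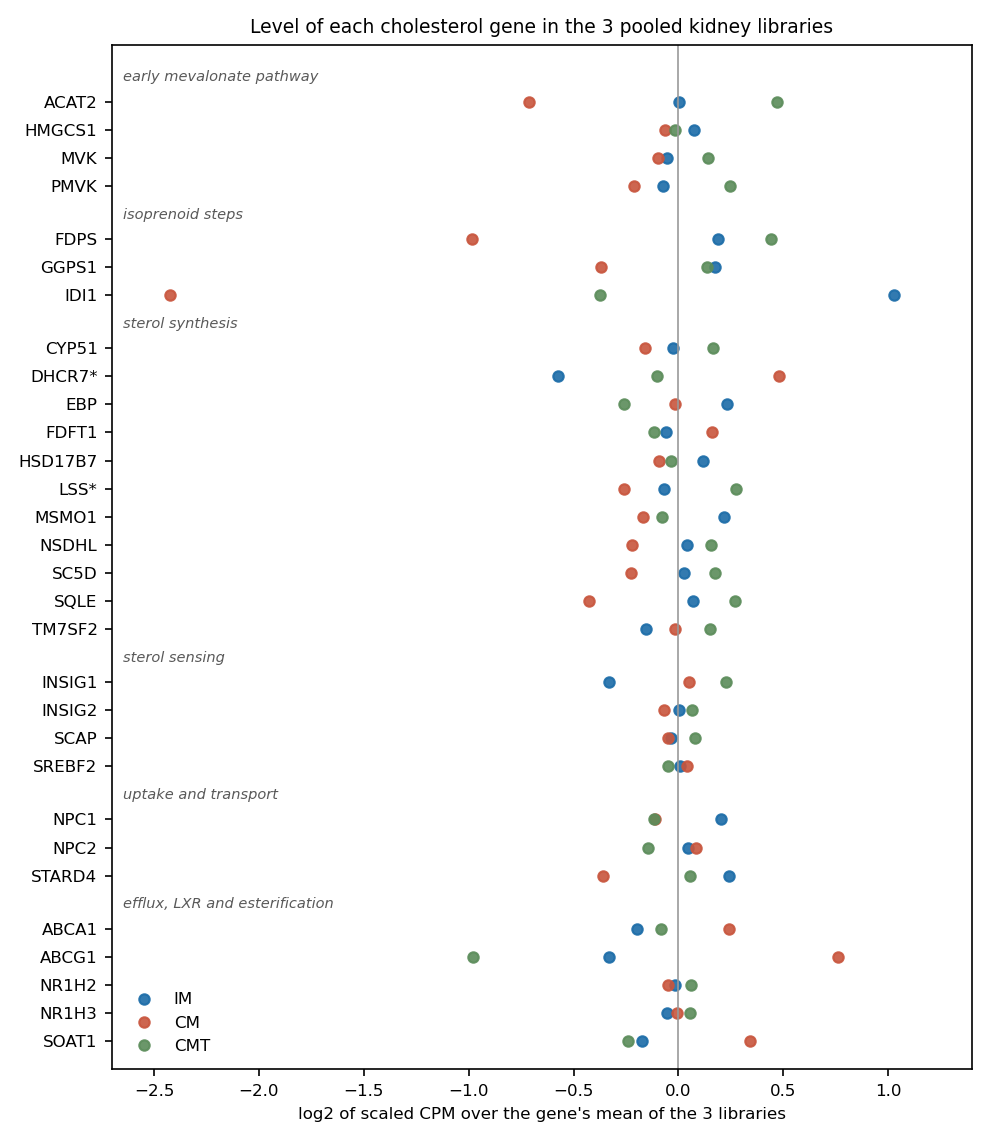
Level of each gene in the 3 pooled libraries. Each row is a gene, each point a library (IM blue, CM red, CMT green), and the horizontal axis gives log2 of scaled CPM over the gene's mean of the 3 libraries; an asterisk marks a gene found under a numbered identifier. CM stands lowest for FDPS, IDI1 and ACAT2 and highest for ABCG1 and DHCR7, while the points of SREBF2, SCAP, NR1H2 and NR1H3 lie close together.

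Of the 3 genes of the isoprenoid steps, FDPS and IDI1 were called in CM against IM. FDPS codes for farnesyl diphosphate synthase, which builds the branch point of the pathway. It had 2408 counts in IM, 1220 in CM and 2295 in CMT, or 145, 64.5 and 173 CPM. CM was low, and IM and CMT were close to each other. The level in CM was 2.25-fold lower than in IM (2.10 to 2.42), and that in CMT was 2.69-fold higher than in CM (2.51 to 2.88). CMT stood 1.19-fold above IM (1.13 to 1.26).

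IDI1, the isopentenyl diphosphate isomerase that supplies the substrate of FDPS, was sparse. Its counts were 96, 10 and 29 in IM, CM and CMT, or 5.80, 0.529 and 2.19 CPM. IM was high, CM low, and CMT between them. CM was 10.96-fold lower than IM (5.71 to 23.6). CMT was 4.14-fold above CM (1.96 to 9.53), which passed 1.5-fold and just missed the 2-fold rule, and CMT was 2.65-fold below IM (1.73 to 4.16). The few counts leave these intervals wide, and a gene at this level falls out of the comparison when a mean of 5 CPM is required.

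GGPS1 makes geranylgeranyl diphosphate for protein prenylation and had 239, 187 and 186 counts in IM, CM and CMT. In scaled CPM these were 14.4, 9.89 and 14.1, with CM lowest and the other pools nearly equal. It was 1.46-fold lower in CM than in IM (1.20 to 1.78) and 1.42-fold higher in CMT than in CM (1.15 to 1.75), and it passed neither mark. The intervals of all 3 isoprenoid genes lay below 1 in CM against IM and above 1 in CMT against CM. Both comparisons use the CM library, so they are not independent of each other.

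The early mevalonate genes differed less. ACAT2, the cytosolic thiolase that joins acetyl-CoA units ahead of HMG-CoA, had 363, 253 and 402 counts, or 21.9, 13.4 and 30.4 CPM in IM, CM and CMT. Its order was CMT, IM, CM from high to low. CM was 1.64-fold lower than IM (1.39 to 1.93), and CMT was 2.27-fold above CM (1.93 to 2.67), past 1.5-fold but not past the 2-fold rule. CMT was also 1.39-fold above IM (1.20 to 1.60). HMGCS1, the HMG-CoA synthase and a well-known SREBP target, had 31.0, 28.2 and 29.2 CPM, and its interval held 1 in every comparison. The kinases MVK and PMVK, which phosphorylate mevalonate, had 28.7, 27.9 and 32.9 CPM and 40.7, 37.0 and 50.8 CPM. PMVK was 1.37-fold higher in CMT than in CM (1.23 to 1.53), and its interval held 1 in CM against IM.

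None of the 9 genes from squalene to cholesterol found by symbol passed 1.5-fold in any comparison. Their median log2 fold was -0.245 in CM against IM, with log2 folds from -0.485 for SQLE to 0.22 for FDFT1, and 7 of 9 below 0. In CMT against CM the median was 0.17, with FDFT1 lowest at -0.28 and SQLE highest at 0.68. SQLE, the squalene epoxidase, had 138, 112 and 127 counts in IM, CM and CMT, or 8.33, 5.92 and 9.60 CPM. CM was 1.41-fold below IM (1.09 to 1.82), and CMT was 1.62-fold above CM (1.25 to 2.11).

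FDFT1, the squalene synthase that commits farnesyl diphosphate to sterols, went the other way from FDPS, which lies just before it. It had 1612, 2146 and 1240 counts, or 97.4, 114 and 93.7 CPM in IM, CM and CMT. CM was highest, 1.17-fold above IM (1.09 to 1.24), and CMT was 1.21-fold below CM (1.13 to 1.301). In CMT against IM the range of the 9 genes ran from EBP to TM7SF2. EBP, the sterol isomerase, was 1.41-fold lower in CMT (1.17 to 1.70), and TM7SF2, a sterol reductase, was 1.24-fold higher (1.03 to 1.48).

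The rows matched to DHCR7 and LSS extend the sterol steps. DHCR7, the reductase of the last step to cholesterol, had 166, 393 and 184 counts in IM, CM and CMT, or 10.03, 20.8 and 13.9 CPM. CM was highest, 2.07-fold above IM (1.73 to 2.50), past 1.5-fold but not the 2-fold rule. CMT was 1.496-fold below CM (1.25 to 1.79) and 1.39-fold above IM (1.12 to 1.72). LSS, which folds oxidosqualene into lanosterol, had 46.4, 40.8 and 59.0 CPM, with CMT 1.45-fold above CM (1.31 to 1.60). DHCR7 and FDFT1 were thus highest in CM, where FDPS, IDI1, ACAT2 and SQLE were lowest, although FDFT1 and SQLE passed neither mark. Of 8 compared hepatocyte markers, 5 had an interval below 1 in CM against IM and 3 had one above 1. ALB (118, 1.27 and 30.5 CPM in IM, CM and CMT) and TF (626, 285 and 547 CPM) were lowest in CM. TTR (8.03, 25.9 and 58.6 CPM), AMBP (16.1, 24.3 and 21.3 CPM) and FGB (4.65, 6.56 and 6.95 CPM) were lowest in IM. The part of liver-type RNA in the values of the cholesterol genes was not tested.

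**Figure D2:**
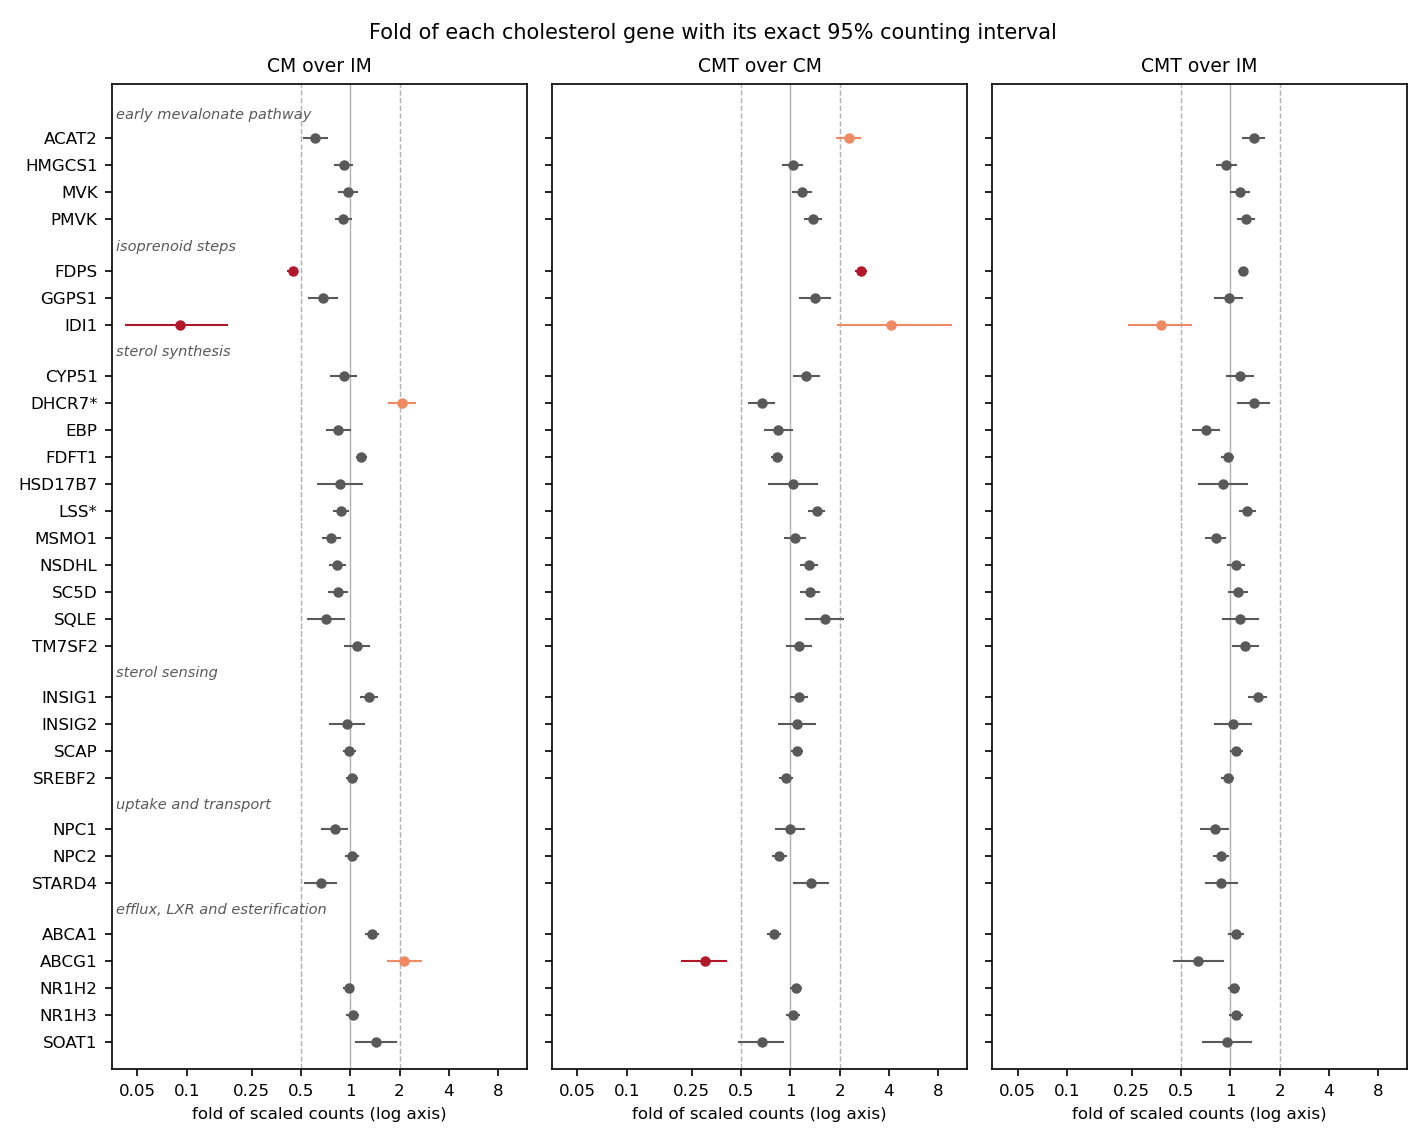
Fold of scaled counts for each gene in CM over IM, CMT over CM and CMT over IM, on a log axis, with the exact 95% counting interval as a bar and dashed lines at 0.5 and 2. Dark red marks an interval wholly beyond 2-fold, orange one wholly beyond 1.5-fold, grey the rest, and an asterisk a gene found under a numbered identifier; FDPS and IDI1 lie left of the dashed line in CM over IM, and FDPS right and ABCG1 left in CMT over CM.

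The genes that sense sterols showed small differences. SREBF2 had 1383, 1614 and 1063 counts in IM, CM and CMT, or 83.5, 85.4 and 80.3 CPM. Its fold was 1.02 in CM over IM (0.951 to 1.10) and 0.941 in CMT over CM (0.870 to 1.02). SCAP, its escort, had 87.5, 86.4 and 94.7 CPM, with a fold of 0.988 in CM over IM (0.920 to 1.06) and 1.10 in CMT over CM (1.02 to 1.18). Both intervals of SREBF2 lay well within 1.5-fold, and they cover counting error only.

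INSIG1, which retains SCAP and is itself an SREBP target, had 518, 770 and 609 counts in IM, CM and CMT, or 31.3, 40.7 and 46.0 CPM. IM was lowest. CM was 1.302-fold above IM (1.16 to 1.46) and CMT was 1.47-fold above IM (1.31 to 1.66). The order of INSIG1 therefore differs from that of FDPS, for which CM was lowest. INSIG2, its relative, had 8.33, 7.94 and 8.69 CPM, and its interval held 1 in every comparison. The INSIG2 row is typed as ncRNA in the table, and RefSeq lists a protein-coding gene and a pseudogene under that symbol, so which of them the counts stand for is unknown.

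Genes of sterol transport inside the cell were lower in CM than in IM or level. STARD4, a carrier of cholesterol between membranes, had 203, 153 and 143 counts in IM, CM and CMT, or 12.3, 8.09 and 10.8 CPM. It was 1.51-fold lower in CM than in IM (1.22 to 1.88) and 1.33-fold higher in CMT than in CM (1.06 to 1.69). NPC1, which exports cholesterol from lysosomes, had 16.9, 13.6 and 13.5 CPM. CM and CMT were alike in value, and CMT was 1.25-fold below IM (1.03 to 1.52). NPC2, the soluble protein that hands sterol to NPC1, had 66.9, 68.6 and 58.6 CPM, with CMT 1.17-fold below CM (1.07 to 1.28). No gene of these 3 passed 1.5-fold.

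Of the 5 genes of efflux, LXR and esterification, ABCG1 was the only one past 1.5-fold in CM against IM. ABCG1, the pump that loads cholesterol onto high-density lipoprotein, had 104, 253 and 53 counts in IM, CM and CMT, or 6.28, 13.4 and 4.004 CPM. CM was high, IM lower and CMT lowest. CM was 2.13-fold above IM (1.69 to 2.70), past 1.5-fold but not the 2-fold rule. CMT was 3.34-fold below CM (2.48 to 4.58), past the 2-fold rule, and 1.57-fold below IM (1.12 to 2.23).

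ABCA1, which moves cholesterol to lipid-poor apolipoprotein, had 942, 1458 and 813 counts in IM, CM and CMT, or 56.9, 77.1 and 61.4 CPM. CM was highest, 1.36-fold above IM (1.25 to 1.47), and CMT was 1.26-fold below CM (1.15 to 1.37). SOAT1, which esterifies cholesterol for storage, had 84, 137 and 64 counts, or 5.07, 7.25 and 4.84 CPM. CM was again highest, 1.43-fold above IM (1.08 to 1.90), and CMT was 1.499-fold below CM (1.11 to 2.05). For ABCA1 and SOAT1 the interval of CMT over IM held 1, and neither gene passed 1.5-fold in any comparison. Among further transporters of the family, named after their values were seen, ABCA7 was 1.22-fold lower in CM than in IM (1.01 to 1.47), and the intervals of ABCA5 and ABCA8 held 1.

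The LXR receptor genes did not share this pattern. NR1H3, which codes for LXR-alpha, had 70.0, 72.3 and 75.4 CPM in IM, CM and CMT, and its interval held 1 in every comparison. NR1H2, which codes for LXR-beta, had 104, 101 and 109 CPM, with a fold of 0.979 in CM over IM (0.917 to 1.05) and 1.08 in CMT over CM (1.01 to 1.16). ABCA1, ABCG1 and SOAT1 are also strongly expressed in macrophages. Of 16 macrophage markers, 15 had a row with counts, and their summed level was 153, 196 and 231 CPM in IM, CM and CMT. None of these markers was called in CMT against CM or in CM against IM. In CMT against IM, MSR1 was the compared marker called, higher in CMT, beside 0.905% of all compared genes. There 7 of 14 compared markers had an interval above 1 and 0 below, beside 17.8% and 17.5% of all compared genes. In CM against IM, 6 of 14 compared markers had an interval above 1, 1 (C1QB) had one below 1, and 7 held 1. The only one past 1.5-fold there was CSF1R, the receptor that keeps macrophages alive, with 13.0, 25.5 and 26.1 CPM. The summed macrophage level was highest in CMT, the library in which ABCG1 was lowest, and its part in the CM values of these genes was not tested.

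The genes were also summed up as synthesis enzymes and all others. The 16 synthesis enzymes found by symbol had a median log2 fold of -0.25 in CM against IM, with 14 of 16 below 0, and 0.35 in CMT against CM, with 14 of 16 above 0. Of the 15472 compared genes, 7846 were below 0 in CM against IM and 7624 above 0 in CMT against CM. When libraries were scaled by total counts alone, the enzymes HMGCS1 and HSD17B7 fell just below 0 in CMT against CM. The 12 genes of sensing, transport, efflux and esterification had medians of 0.03 and 0.03, with 7 of 12 and 6 of 12 above 0. Over all 28 genes the medians were -0.135 and 0.131, where the medians over the 15472 compared genes were -0.006 and -0.004. With libraries scaled by total counts alone, the median of the 28 genes in CMT against CM was 0.061 and that of all genes -0.074. Most of the enzymes' differences were small. In CM against IM, 9 of 16 enzymes had an interval below 1 and 1 an interval above 1, beside 23.2% and 21.2% of all compared genes. In CMT against CM, 10 of 16 had an interval above 1 and 1 below, beside 21.3% and 20.4%. MVK and CYP51 were among these 10 and no longer had an interval above 1 with total counts alone. Over all 28 genes, 14 intervals lay above 1 and 5 below in CMT against CM, and 9 above and 7 below when libraries were scaled by total counts alone. The CM library enters both comparisons, and whether enzymes and other genes differ was not tested.

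**Figure D3:**
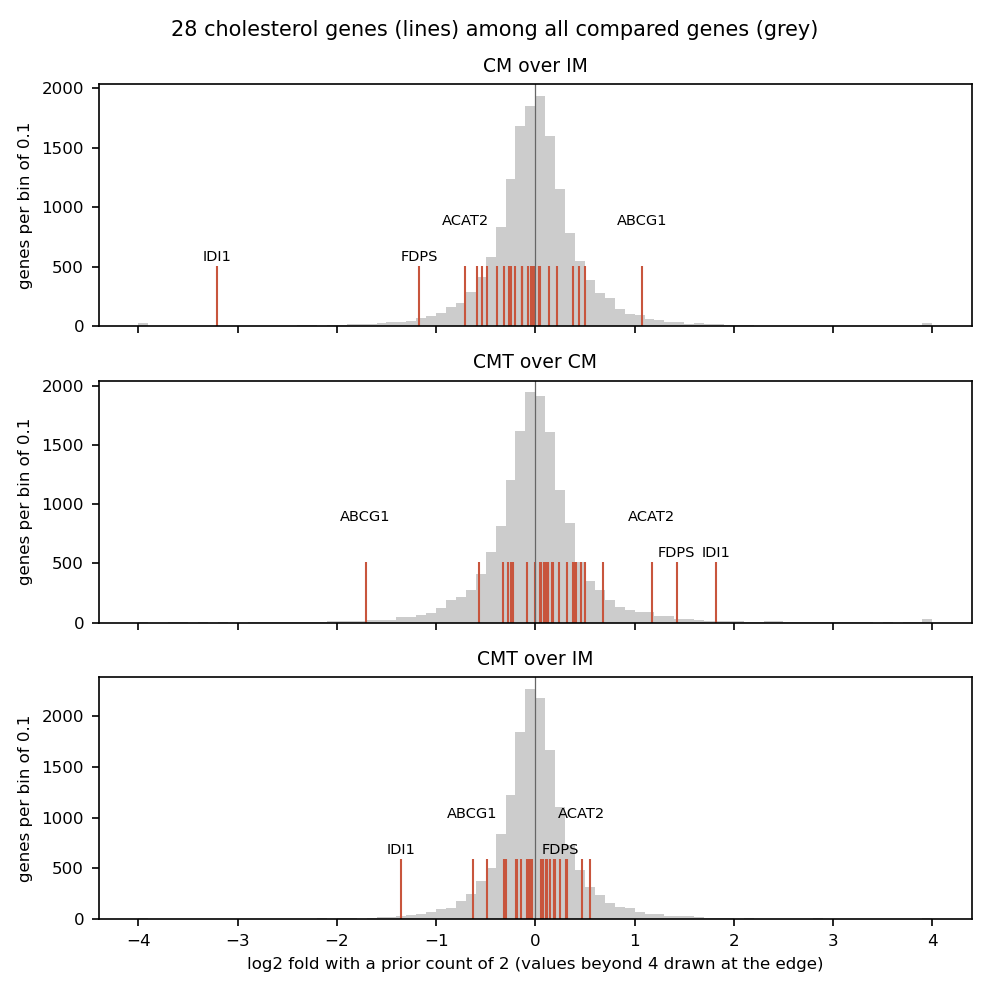
Log2 fold of the 28 genes found by symbol (red lines) over the histogram of all 15472 compared genes (grey, bins of 0.1), in 3 panels for CM over IM, CMT over CM and CMT over IM. Most lines lie within the body of the histogram in each panel; FDPS and IDI1 stand to its left in CM over IM and to its right in CMT over CM, and ABCG1 on the opposite sides.

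Between the pools of testosterone-treated and intact pigs, most of these genes differed little. In CMT against IM, the median log2 fold of the 28 genes was 0.07, or 0.022 with total counts alone, and 15 of 28 intervals held 1. Of the other 13 genes, 7 were higher and 6 lower in CMT, beside 17.8% and 17.5% of all compared genes. IDI1 was the gene farthest below IM, with a log2 fold of -1.35, and INSIG1 the farthest above, with 0.56. FDPS, ABCG1 and ACAT2, which passed 1.5-fold in CMT against CM, did not pass it here.

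Other genes of cholesterol handling were mostly neither higher nor lower. Among 18 measured genes of SREBP processing, SREBF1, which codes for the lipogenic SREBP-1, was called, lower in CMT than in CM, beside 1.11% of all compared genes. It had 581, 1455 and 411 counts in IM, CM and CMT, or 35.1, 77.0 and 31.1 CPM. CM was high, 2.19-fold above IM (1.99 to 2.42), just short of the rule, and CMT was 2.48-fold below CM (2.22 to 2.77). SREBF1 is a known LXR target and, like ABCG1 and ABCA1, was highest in CM. Other genes of the list of efflux and LXR targets, named after their values were seen, were mixed. APOE had 5.92, 11.0 and 6.42 CPM in IM, CM and CMT, and PLTP had 15.8, 23.8 and 18.7 CPM, both highest in CM. LPCAT3, a phospholipid-remodelling enzyme, had 101, 91.1 and 104 CPM and was lowest in CM, with a fold of 0.899 in CM over IM (0.840 to 0.962). SMPDL3A was lowest in CM too, at 65.3, 57.5 and 84.3 CPM. MYLIP had 60.9, 65.1 and 43.7 CPM. Its interval in CM over IM held 1, and CMT was 1.49-fold below CM (1.35 to 1.65). SREBF2, the relative of SREBF1, was level over the 3 pools.

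Of 23 measured genes of lysosomal and membrane sterol transport, SCP2 was called, beside 1.52% of all genes lower in CM against IM and 1.84% higher in CMT against CM. It was 3.31-fold lower in CM than in IM (3.12 to 3.50) and 3.55-fold higher in CMT than in CM (3.35 to 3.77). SCP2 codes for a sterol carrier protein and a peroxisomal thiolase, and it had 277, 83.9 and 298 CPM in IM, CM and CMT. As for FDPS, CM was the low pool. Of 11 other genes of sterol synthesis, POR, which passes electrons to CYP51 and SQLE, was called. POR had 108, 66.8 and 159 CPM and was 2.38-fold higher in CMT than in CM (2.22 to 2.56).

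Of 11 measured genes of sterol esters and oxysterols, CYP27A1 and LIPE were called, where between 0.595% and 1.84% of all genes were called in a direction of a comparison. CYP27A1, the sterol 27-hydroxylase, had 94, 980 and 222 counts in IM, CM and CMT, or 5.68, 51.8 and 16.8 CPM. CM was 9.13-fold above IM (7.38 to 11.4), CMT was 3.09-fold below CM (2.67 to 3.59), and CMT was still 2.95-fold above IM (2.31 to 3.80). CYP27A1 makes 27-hydroxycholesterol, an oxysterol known to activate LXR. Whether its level bears on the LXR targets in these pools was not tested. LIPE, a lipase that also splits cholesterol esters, had 5.31, 2.75 and 9.67 CPM and was 3.52-fold higher in CMT than in CM (2.53 to 4.95).

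Of 16 measured genes of efflux and LXR targets, APOA1, the main apolipoprotein of high-density lipoprotein, was called higher in CM than in IM, beside 1.20% of all genes. Its fold was 2.47 (2.14 to 2.86). SREBF1 was the only one called in CMT against CM, where 1.11% of all genes were called lower. Of 17 measured genes of lipoprotein uptake, MSR1, a macrophage scavenger receptor, was called in CMT against IM, beside 0.905% of all genes, at 3.05-fold higher (2.03 to 4.70), with 34, 56 and 83 counts in IM, CM and CMT. The 16 measured genes that use isoprenoids for dolichol, ubiquinone or prenylation had 0 calls, which at these shares of all genes says little, and their median log2 fold was -0.08 in CM against IM and 0.06 in CMT against CM.

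**Figure D4:**
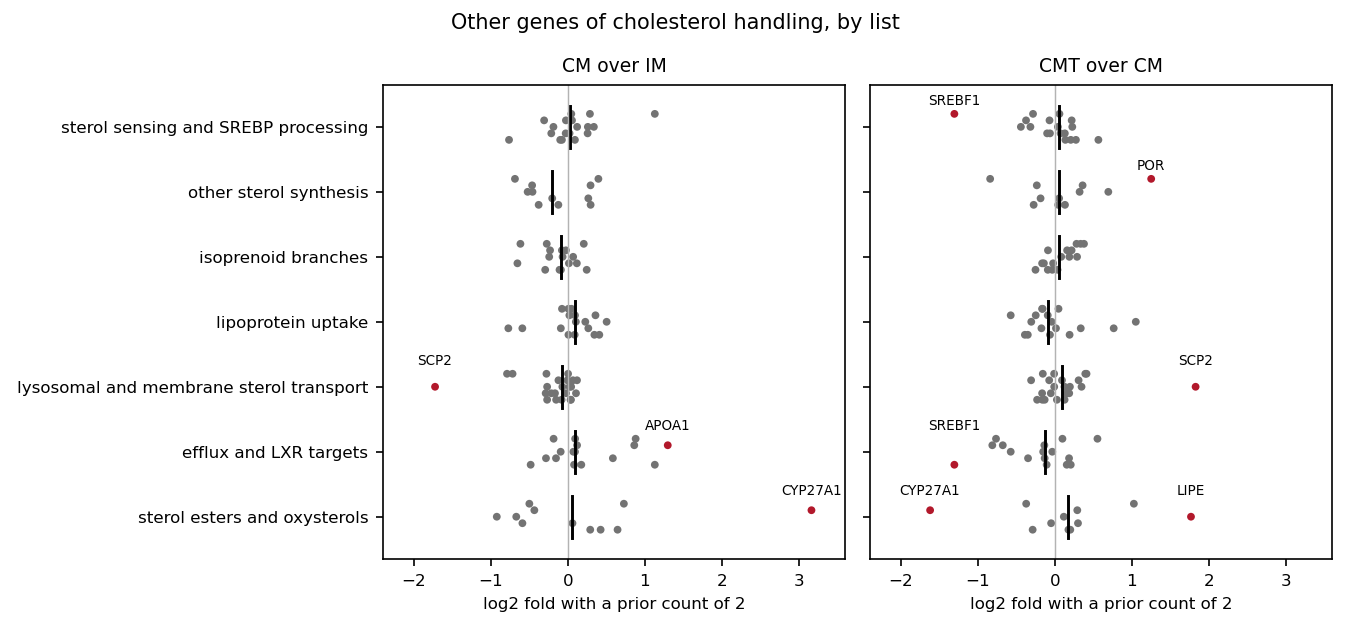
Log2 fold of each compared gene of 7 further lists of cholesterol handling (points) in CM over IM and CMT over CM, with the median of each list as a black bar; red points with a name passed the 2-fold rule. CYP27A1 stands far right in CM over IM and left in CMT over CM, and SCP2 the reverse. The medians of the 7 lists run from -0.202 (other sterol synthesis) to 0.095 (efflux and LXR targets) in CM over IM. In CMT over CM they run from -0.135 (efflux and LXR targets) to 0.176 (sterol esters and oxysterols).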

How the data were processed

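Kidney RNA of 3 pigs per group was pooled before library preparation, per the labels' protocols, giving 1 library for each of IM, CM and CMT. The values the authors deposited are unnormalized counts of reads for each gene; FastQC is named in the submitters' processing notes. Aligner, counting program, strand setting, genome build and annotation are not given in the sources used here. How reads of similar copies or pseudogenes (FDPS has such copies in mammals) were assigned is unknown, overlapping genes cannot be told apart, and no coordinates or sequences are printed. The label protocol names an Ion Torrent kit and the series text an Illumina sequencer, and the platform was not settled. The series text also mentions triplicates, while only 1 pooled column of counts per group was available.

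Libraries were scaled with TMM factors of 1.01 in IM, 1.02 in CM and 0.973 in CMT from edgeR 4.0.16 under R 4.3.3, and no model was fitted, since groups of 1 library allow none. The comparison took the 15472 genes whose scaled CPM averaged at least 1. Folds carry exact Clopper-Pearson 95% intervals (SciPy 1.17.1), which cover counting error only, since reads are not independent molecules and the spread between pigs is unknown. A prior count of 2 entered each log2 fold. Symbols of numbered identifiers came from RefSeq's Sscrofa11.1 table, which gave 1556 of them. The genes, the lists and the rules were chosen with earlier results of these data known. Every gene past 1.5-fold and every sensing, transport or efflux gene is given by library, the other cholesterol genes by range with the extremes named, and genes of other lists where past 2-fold; HMGCS1, MVK, PMVK, GGPS1, DHCR7 and LSS were added after their values were seen. Alternatives covered scaling, filters, thinning, interval level, prior count and the choice of genes. A search of promoters for motifs was planned and was not run.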

Additional observations from a re-analysis of the deposited data

How the results depend on the processing

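With 1 pool per group, depth limits only the counting error, and the spread between pigs cannot be estimated. There were 12 alternatives, and not every result was compared in each. Counts of called genes were not compared for the other prior counts or for synthesis enzymes alone, nor medians for the other interval level. The typical counting error of a gene was 0.181, 0.195 and 0.194 on the log2 scale in CM against IM, CMT against CM and CMT against IM. Counts of called genes were held to within 1.5 times, and medians to within this error. Of 114 values, 3 moved past that: the count of genes lower in CM than in IM, 1 in place of 2 when a mean of at least 5 CPM was required, and the count past 1.5-fold in CMT against IM, 0 in place of 1 under the same filter; both lost IDI1, which that filter removes. With synthesis enzymes alone, the median log2 fold in CMT against CM was 0.349 in place of 0.131, because the efflux and sensing genes were left out. These tolerances exceed the medians themselves, which moved by more than 1.5 times within them: with total counts alone to 0.061 in CMT against CM and to 0.022 in CMT against IM, and with synthesis enzymes alone to -0.249 in CM against IM and 0.131 in CMT against IM. Medians kept their sign, with ranges of -0.249 to -0.103 in CM against IM, 0.061 to 0.349 in CMT against CM and 0.022 to 0.131 in CMT against IM. Single genes kept their 2-fold call in all 624 values over 7 alternatives, LSS and DHCR7 included. A change of filter leaves a gene's fold and interval as they were, so the filter alternatives among these could not alter a call. The 1.5-fold mark was not compared gene by gene. Folds near 1 depend on the scaling: with total counts alone, MVK, CYP51, INSIG1, SCAP and NR1H2 no longer had an interval above 1 in CMT against CM, and in CM against IM EBP no longer had one below 1. Adding LSS and DHCR7, and leaving out INSIG2, were alternatives chosen after seeing the data. Leaving out a replicate was not possible, as each group has 1 library.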
